A study of Mus musculus with 6 samples.

Results

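Long intergenic non-coding RNA (lincRNA) regions are, by definition, stretches of the genome outside protein-coding genes that give long RNAs without a long open reading frame. Some regions described below nonetheless hold probes of coding-gene transcripts on their other strand. The array used here carries probes for 4607 such regions (16181 probe sequences), each named by its mouse mm9 coordinates and by the strand it reads, F for plus and R for minus. The regions described here are those whose probes lie within 20 kb of a probe for a RefSeq protein-coding mRNA on the opposite strand and of none on the same strand. By this rule 677 regions with 2449 probe sequences were found, and in 588 of the 677 regions every probe met it. Another 1072 regions (3588 probes) had a coding probe within 20 kb on their own strand, 3001 regions (10026 probes) had none within 20 kb on either strand, and 53 regions (118 probes) had no mapped position. Single probes of 1 region can fall in different classes, so these counts overlap.

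The measurements came from 6 single-colour arrays of erythroid progenitors taken from mouse fetal liver at E14.5. A retrovirus delivered a short hairpin RNA, and the cells were then cultured for 3 days. In 3 samples (shExosc8) the hairpin targeted Exosc8, a core subunit of the RNA exosome, and in 3 (shControl) it targeted luciferase, a gene that mouse cells lack. All samples therefore carried a hairpin vector, and the comparison asks which transcripts depend on Exosc8. The labels do not say if the replicates are separate animals, litters or cultures. The p-values therefore reflect the spread among these 6 samples alone, and part of it may be technical.

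The RNA exosome is a ring of subunits that binds a 3' to 5' ribonuclease and degrades or trims RNA in the nucleus and the cytoplasm. It is known for removing short-lived non-coding RNAs, among them transcripts that start at promoters and run away from the gene on the opposite strand, and for trimming the ends of stable RNAs. Adaptor complexes bring it to its nuclear substrates, and the Ski complex, whose scaffold is Ttc37, feeds it in the cytoplasm. RNA read from the strand opposite a gene can be an independent transcript, a divergent promoter transcript or an antisense RNA, and an array probe does not tell these apart.

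The probes were 60 bases long, and a set that carries the results is printed here so that the 2 directions can be compared by eye. Sequences were copied from the scanner files and run 5′ to 3′ on the strand of their region, and coordinates are on mm9. Of 356 overlapping neighbour probes compared, 354 joined in that order. Capitals mark every unbroken run of 6 or more pyrimidines (C or T), chosen after the values had been seen because the base composition of rising and falling probes differed, as described below. The first group rose in shExosc8.
Opposite Hlx, chr1:186563196-186563255, plus strand: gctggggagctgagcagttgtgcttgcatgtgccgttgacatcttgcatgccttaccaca
Opposite Neat1, nearest coding gene Frmd8, chr19:5843984-5844043, plus strand: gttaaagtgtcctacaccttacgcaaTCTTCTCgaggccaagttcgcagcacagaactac
Opposite Mttp, chr3:137744283-137744342, plus strand: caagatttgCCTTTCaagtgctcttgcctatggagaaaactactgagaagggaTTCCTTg
Opposite Rhbg, chr3:88032797-88032856, plus strand: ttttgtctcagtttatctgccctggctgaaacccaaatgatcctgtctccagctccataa
Opposite Tfap4, chr16:4541522-4541581, plus strand: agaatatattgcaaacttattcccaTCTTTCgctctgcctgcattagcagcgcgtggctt
Opposite Slc17a5, chr9:78372554-78372613, plus strand: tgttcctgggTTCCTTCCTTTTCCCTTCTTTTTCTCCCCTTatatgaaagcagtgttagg
The second group fell in shExosc8.
Opposite Plekha8, chr6:54594285-54594344, minus strand: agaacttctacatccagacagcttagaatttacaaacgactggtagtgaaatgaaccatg
Opposite Zfp652, chr11:95629641-95629700, minus strand: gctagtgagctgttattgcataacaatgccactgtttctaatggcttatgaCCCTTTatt
Opposite Zfp169, chr13:48581443-48581502, plus strand: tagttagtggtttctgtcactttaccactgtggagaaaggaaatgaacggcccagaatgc
Opposite Phb, chr11:95561654-95561713, minus strand: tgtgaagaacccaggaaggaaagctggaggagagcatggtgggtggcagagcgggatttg
Opposite Prrg4, chr2:104658490-104658549, plus strand: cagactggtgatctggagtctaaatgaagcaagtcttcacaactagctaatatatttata
Opposite Myoz1, chr14:21462846-21462905, plus strand: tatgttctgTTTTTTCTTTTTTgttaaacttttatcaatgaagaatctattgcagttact
The longest capital run is in the Slc17a5 probe, where 71.7% of the bases are pyrimidines. The Phb probe has no such run and holds 26.7% pyrimidines.

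Exosc8 itself was lower in every shExosc8 array than in any control. Relative to the control mean it stood at 40.4%, 40.0% and 57.4% in shExosc8 replicates 1, 2 and 3 and at 98.5%, 97.8% and 103.8% in the controls. This is -1.14 ± 0.17 on the log2 scale (SE, 3 arrays a group), with an adjusted p of 0.00606 by limma, and an exact permutation test (two-sided) gave p = 0.1, its lower limit with 3 arrays a group. The 6 arrays shared 1 slide and 1 scan, and each group filled a slide row of its own, so row and group cannot be told apart. The share of spots well above background was 67.3% on shControl replicate 2 and 43.1% to 49.3% on the other arrays. Of the 12 exosome subunits on the array 6 fell, the targeted Exosc8 among them, and 0 rose. Of 16 nuclear adaptors measured 5 fell, and of 38 termination and 3' end genes 8 fell, with no rise in either list. For comparison with these lists and those below, 13.1% of all probes tested fell and 14.7% rose. Of the coding probes tested 15.3% fell and 15.3% rose. Among markers of the labelled cell type, 16 of 29 erythroid genes rose and 1 fell, and all 29 were above background on every array. Markers of other blood cells moved as well, with rises in 18 of 19 megakaryocyte, 14 of 15 neutrophil and monocyte, 7 of 9 macrophage and 4 of 8 mast cell genes measured. The mean log2 level of the megakaryocyte list ran from 12.70 to 13.16 in shExosc8 and from 9.55 to 10.04 in shControl, and that of the neutrophil and monocyte list from 12.61 to 12.82 and from 10.76 to 11.09. Outside blood, 4 of 9 hepatocyte genes, 2 of 5 endothelial and stromal genes (1 fell) and 1 of 6 lymphoid genes rose. No list was without a marker above background, and the part of these cells in the results below was not tested. In bulk RNA, a change in the cells present and a change of RNA per cell cannot be told apart.

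Most of the region probes were dim. Of 2449 probes 630 (25.7%) passed the filter, which asks that every array of 1 group or of both read the spot well above background, against 34.6% of the lincRNA probes with a coding probe on their own strand, 25.3% of those far from coding genes and 58.3% of coding probes. Of the 630, 457 were above background on all 6 arrays, 141 passed through the shControl arrays alone and 32 through the shExosc8 arrays alone. Over all 24836 probes tested these numbers were 21615, 2410 and 811. Probes that entered through 1 group had to lean towards that group, so counts are also given for the 457. On shControl replicate 2 59.0% of the region probes were above background, against 22.4% to 32.5% on each other array. A total of 924 probes were above background on no array, and 608 on shControl replicate 2 alone. Their levels are not described.

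Among the 630 tested probes, 90 rose (14.3%) and 52 fell (8.25%) in shExosc8, and 488 did not pass an adjusted p of 0.05 by limma. Over all 24836 probes tested, 14.7% rose and 13.1% fell, so in this fit the share that rose was near the background and the share that fell was below it. Of the 457 probes above background on all 6 arrays, 73 rose (16.0%) and 34 fell (7.44%), against 14.4% and 13.2% of all such probes. In the classes with a coding gene on the same strand and far from coding genes, 12.2% and 15.1% of the tested probes rose and 13.0% and 7.71% fell. The median log2 fold change of the region probes was -0.0012, beside -0.08 for all probes. Changes of at least 2-fold numbered 59 upward (9.37%) and 27 downward (4.29%), against 9.34% and 2.16% of all probes. The share of falls of this size was thus above that of the array. Among the 457 above background on all 6 arrays, 44 rose (9.63%) and 13 fell (2.84%) by this much, against 8.42% and 1.26%. The 27 include all 7 tested probes of the region opposite Zfp652 and all 3 of that opposite Plekha8. The 13 include the same probes except 1 opposite Zfp652, which was above background on only 1 shExosc8 array. Most of the 13 thus came from these regions, and probes of 1 region are not independent. In all 142 changed probes the 3 shExosc8 values did not overlap the 3 shControl values. The same was not counted for the changed probes of the whole array, so this cannot be called particular to these regions. The split between directions depended on the scaling of the arrays. With the 75th percentile of all probes it was 77 up (12.2%) and 98 down (15.6%), beside 13.4% and 24.4% of all probes in the same fit. With normexp background correction it was 110 up (17.5%) and 23 down (3.65%), beside 16.6% and 7.86%. With no normalization between arrays it was 47 up (7.46%) and 218 down (34.6%), beside 8.36% and 42.1%. The median of all probes moved from -0.08 to -0.23, 0.04 and -0.58 under these settings, so the swing ran through the whole array. Leaving out 1 array gave 40 to 152 rises and 22 to 81 falls, and the highest counts came without shExosc8 replicate 3 (12.1% of the region probes fell, beside 22.1% of all probes). The gap in falls was small or absent without any other array. Without shExosc8 replicate 1 3.48% of the region probes fell, beside 3.48% of all probes, and without replicate 2 5.18% beside 5.76%. Without shControl replicates 1, 2 and 3 the shares were 3.73%, 4.11% and 3.6%, beside 4.11%, 4.98% and 4.0%.

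**Figure D1:**
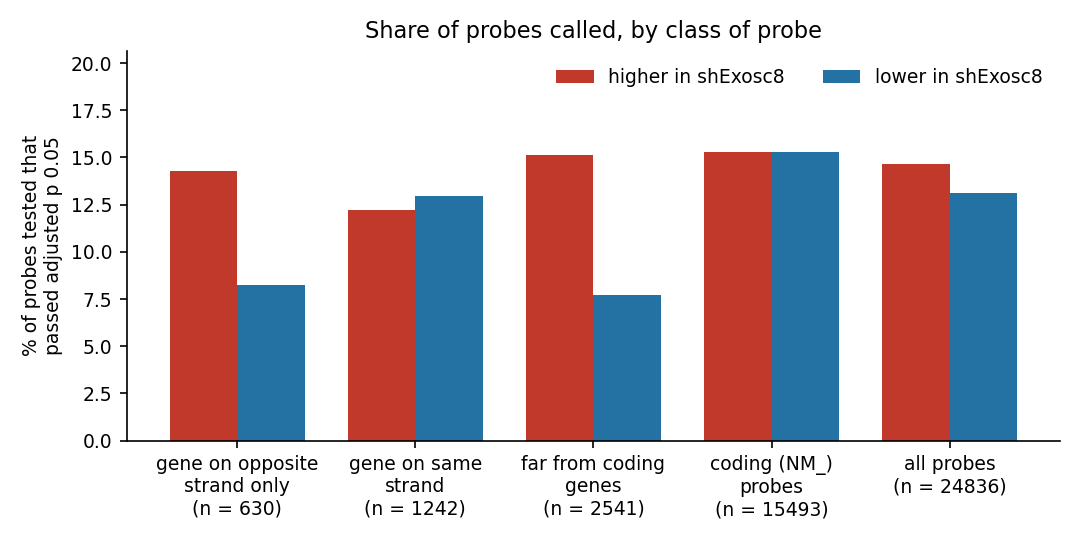
Bars show the percentage of tested probes that were higher (red) or lower (blue) in shExosc8 at an adjusted p under 0.05 by limma, for lincRNA probes with a coding probe within 20 kb on the opposite strand only, on the same strand or on neither, for coding probes and for all probes, with n the number tested. The opposite-strand class shows 14.3% higher and 8.25% lower, beside 14.7% and 13.1% of all probes.

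The rises and falls were spread over the genome and were seldom shared by all probes of a region. The 630 tested probes came from 348 regions, of which 76 had at least 1 probe that rose, 32 at least 1 that fell and 0 both. In 190 regions a single probe was tested. Of the 158 with 2 or more tested probes, every probe rose in 5 and every probe fell in 6. These 11 regions lay opposite Hlx, C330018D20Rik (2 regions), Fbxo48 and Trim30a for the rises and opposite Zfp652, Plekha8, Zfp169, Prrg4, Myoz1 and Cep135 for the falls.

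The region opposite Hlx showed the largest rise. Hlx is a homeobox transcription factor needed for growth of the fetal liver, and the region (chr1:186560855-186563399, plus strand, 2545 bases) lies on the 5' side of its probe, at a distance of 8507 bases. The log2 signal of the probe printed above was 9.45, 9.57 and 7.64 in shExosc8 replicates 1 to 3 and 5.95, 6.47 and 4.89 in shControl replicates 1 to 3. The lowest shExosc8 value lay above the highest control, and shExosc8 replicate 3 was the lowest of its group. The difference was 3.12 ± 0.62 (SE, adjusted p = 0.0160 by limma), or 8.67-fold, and the probe was above background on 2 of the 3 controls. The other two tested probes of the same region rose by 3.05 ± 0.63 (adjusted p = 0.0175) and 2.86 ± 0.42 (adjusted p = 0.00616). The call of the printed probe was lost when any of 4 arrays was left out (largest adjusted p 0.0620), and without shExosc8 replicate 3 its fold went from 8.67 to 13.3, while that of the third probe stayed for each array left out. A probe without a gene name that covers the same bases as the third, also on the plus strand, rose by 3.55 ± 0.67 (adjusted p = 0.0136). Hlx rose too, by 1.27 ± 0.30 (adjusted p = 0.0263).

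A region of chromosome 18 behaved alike. It lies on the plus strand on the 3' side of C330018D20Rik, an uncharacterised coding gene, and is 638 bases long. Its 3 probes rose by 2.82 ± 0.44 (adjusted p = 0.00730), 2.70 ± 0.60 (adjusted p = 0.0222) and 2.63 ± 0.34 (adjusted p = 0.00444). For the last of these, above background on all arrays, the log2 signal was 9.72, 10.58 and 9.57 in shExosc8 and 7.28, 7.83 and 6.89 in shControl, so the groups lay more than 1 log2 unit apart. The call of the second probe was lost without any of 4 arrays (largest adjusted p 0.0750), and without shControl replicate 2 its fold went from 6.51 to 10.1. The coding gene rose by 0.93 ± 0.10 (adjusted p = 0.00275). A second region, on the 5' side of the gene's probe, had 2 tested probes, which rose by 1.00 and 1.36. All 5 tested probes of that region's other strand rose as well (0.73 to 1.74).

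The strand opposite Neat1 carried 12 tested probes, of which 7 rose. Neat1 is the long non-coding RNA that builds nuclear paraspeckles, and it is read from the minus strand of chromosome 19. The 12 probes belong to 2 overlapping region names of the plus strand, whose nearest coding gene, Frmd8, stood at 0.11 (adjusted p = 0.421), and they lie between bases 5842428 and 5845497. Their log2 fold changes ran from 0.31 to 2.56 with a median of 1.18. The probe printed above read 7.66, 8.19 and 7.00 in shExosc8 and 4.79, 6.27 and 4.13 in shControl. It rose by 2.56 ± 0.58 (adjusted p = 0.0232), and shControl replicate 2, the array with the most spots above background, was the highest control and the only one above background. Without that array the fold went from 5.89 to 8.94, and the call was lost without any of the other arrays but shExosc8 replicate 3 (largest adjusted p 0.0781). A probe above background on all arrays read 10.89, 11.01 and 10.51 in shExosc8 and 8.21, 9.07 and 8.15 in shControl and rose by 2.32 ± 0.28 (adjusted p = 0.00352). The Neat1 probes of the other strand rose by 2.89 to 3.03 in 6 of 6 cases, and 3 of 4 probes of the neighbouring lincRNA Malat1 rose (1.13 to 1.67 over the 4). Whether signal of the minus strand contributes to the plus-strand probes was not tested. Without these regions 83 probes rose (13.4%) and 52 fell (8.41%) of 618.

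**Figure D2:**
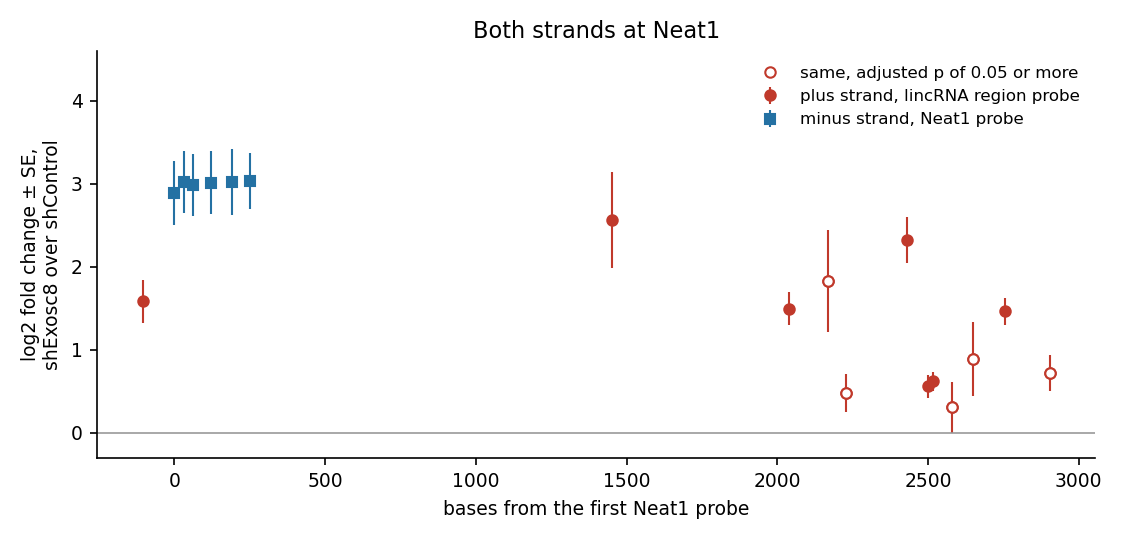
Log2 fold change of shExosc8 over shControl (± SE, n = 3 per group) against the distance in bases from the first Neat1 probe, for the 12 region probes of the plus strand (circles, open where the adjusted p was 0.05 or more) and the 6 Neat1 probes of the minus strand (squares). The Neat1 probes lie at 2.89 to 3.03 and the region probes at 0.31 to 2.56.

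The other large rises were single probes. Of the 9 genes opposite them 4 did not pass, 4 were too dim to test and 1 fell. Mttp encodes the protein that loads lipid onto lipoproteins, and its probe was too dim to test. The probe of the region opposite it (chr3:137742666-137744470, plus strand) read 11.52, 11.27 and 10.74 in shExosc8 and 8.54, 9.27 and 8.52 in shControl. All 3 shExosc8 arrays stood above all controls, and the probe rose by 2.40 ± 0.28 (adjusted p = 0.00333), or 5.27-fold, with the call kept for each array left out. Opposite Slc17a5, the lysosomal exporter of sialic acid, the probe read 11.14, 11.05 and 10.17 in shExosc8 and 8.92, 9.18 and 8.67 in shControl. It rose by 1.86 ± 0.29 (adjusted p = 0.00732), while Slc17a5 stood at 0.40 (adjusted p = 0.0998). Opposite Rhbg, an ammonium transporter of the Rhesus family that was too dim to test, the rise was 2.15 ± 0.33 (adjusted p = 0.00726), but it was carried by 1 of 5 tested probes of the region. The other 4 were not called and stood between -0.54 and 0.20, and Gm3764, a transcript on the strand of that region, was not called either (0.29, adjusted p = 0.233). The rises opposite Ift81, a subunit of intraflagellar transport, and opposite 9430038I01Rik were 2.05 ± 0.27 (adjusted p = 0.00473) and 2.09 ± 0.33 (adjusted p = 0.00770). In the second of these regions 4 probes were tested, and the other 3 were not called (-0.63 to 0.42). Opposite the NAD-dependent deacylase Sirt6, which itself stood at -0.05, the rise was 1.98 ± 0.38 (adjusted p = 0.0144). It was lost without shControl replicate 3, shExosc8 replicate 1 or shExosc8 replicate 2 (largest adjusted p 0.0573). Both probes of BC025920, a non-coding transcript on the strand of that region, were not called, at 0.16 and 0.01.

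Tfap4 fell while 1 of 2 tested probes of the region on its other strand rose. Tfap4 encodes a helix-loop-helix transcription factor, and its probe fell by 0.61 ± 0.13 on the log2 scale (adjusted p = 0.0187). The probe that rose, 3130 bases away on its 3' side, read 8.52, 8.56 and 6.99 in shExosc8 and 5.94, 5.97 and 5.84 in shControl, with no overlap. Its rise of 2.11 ± 0.42 (adjusted p = 0.0158) was lost when any of 4 arrays was left out, with a largest adjusted p of 0.0644. The second probe of the region was not called, at -0.38 (adjusted p = 0.129), and the tested lincRNA probe on the strand of Tfap4 rose (0.70). Of the remaining 2 large rises, the probe opposite G630090E17Rik lay 31 bases from the gene's probe and rose by 2.23 ± 0.27 (adjusted p = 0.00359), while the region's second tested probe was not called, at -0.68 (adjusted p = 0.273). The probe opposite 1110059E24Rik was above background on all shExosc8 arrays and on no control, so it was at least 3.72-fold higher (adjusted p = 0.00517).

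Among the falls, the region opposite Zfp652 held the most probes. Zfp652 encodes a zinc finger protein, and the region (chr11:95627874-95640824, minus strand, 12951 bases) lies on the 3' side of its probe. All 7 tested probes fell, by 1.10 to 1.53 on the log2 scale. The probe printed above read 10.08, 9.62 and 10.33 in shExosc8 and 11.22, 11.05 and 11.10 in shControl, so the groups did not overlap, and it fell by 1.12 ± 0.19 (adjusted p = 0.0106). Of the 7 calls, those of this probe and of the one 2212 bases from the gene's probe held for each array left out. The 9 tested probes of the region's other strand, the strand of Zfp652, fell as well (median -0.90), and the nearest coding probe of Zfp652 fell by 0.55 ± 0.11 (adjusted p = 0.0160). A further probe of a Zfp652 transcript lies within the span of the region, on the other strand. It fell by 0.93 ± 0.13 (adjusted p = 0.00555 by limma).

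The region opposite Plekha8 showed the same arrangement. Plekha8 encodes a lipid transfer protein of the Golgi, and the region (chr6:54591416-54597566, minus strand) spans the place of its probe. The tested probes of the region lie on the 5' side of that probe. The printed probe read 8.25, 7.95 and 7.96 in shExosc8 and 9.06, 9.35 and 9.35 in shControl, and it fell by 1.20 ± 0.14 (adjusted p = 0.00344). The other two tested probes fell by 1.07 and 1.33. All 5 tested probes of the region's other strand fell (median -0.90), and Plekha8 fell by 0.91 ± 0.16 (adjusted p = 0.0112). Near Ttc37, the Ski complex scaffold named above, 2 of 4 tested probes of the opposite strand (chr13:76326228-76332632, minus strand) fell, by 0.71 ± 0.11 and 1.13 ± 0.32, as did 4 of 5 probes of the other strand of the region. Ttc37 fell by 0.54 (adjusted p = 0.0150). This region was chosen after its values were seen.

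In other regions the coding gene on the opposite strand was not called or not tested. The 3 probes opposite Prrg4, a membrane protein with a Gla domain, fell by 0.87 ± 0.13, 0.94 ± 0.18 and 1.01 ± 0.16, and Prrg4 stood at 0.41 (adjusted p = 0.280). The printed probe read 5.56, 5.71 and 5.95 in shExosc8 and 6.57, 6.66 and 6.60 in shControl and was above background on 2 of 3 shExosc8 arrays. A probe for 2310047K21Rik, a transcript on the strand of the region, fell by 1.05 ± 0.18 (adjusted p = 0.00927). Opposite Zfp169, another zinc finger gene (-0.38, adjusted p = 0.20), 3 of 3 tested probes of 1 region fell. A second region name covers nearly the same bases, and 2 of its 4 tested probes fell. The printed Zfp169 probe was above background on no shExosc8 array and so was at least 2.46-fold lower (adjusted p = 0.0118). Near Myoz1, a protein of the muscle Z-disc that was too dim to test, the 3 tested probes of 1 region fell by 0.67 to 1.15, the single tested probe of the next region was at least 2.18-fold lower (adjusted p = 0.00453) and none of 6 tested probes of 2 further overlapping regions passed (-0.25 to -0.13).

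Several of the largest falls were measured only as bounds. The probe opposite Phb, the mitochondrial protein prohibitin, read 5.12, 4.95 and 4.35 in shExosc8, not well above background on any array, and 6.42, 8.01 and 5.86 in shControl. It was at least 2.88-fold lower (adjusted p = 0.0434), and shControl replicate 2 stood highest. Without that array the log2 fold change moved from -1.95 to -1.33 (adjusted p = 0.0363) and the bound to 1.87-fold, and the call was lost without any of 4 other arrays (largest adjusted p 0.102). Of the other two tested probes of that region, 1 was at least 1.72-fold lower (adjusted p = 0.0109) and 1 was not called, at 1.18 times the control level (adjusted p = 0.105). A probe of Zfp652os, a non-coding transcript on the strand of that region, fell by 0.54 ± 0.11 (adjusted p = 0.0161). By the same bound the probes opposite the signalling adaptor gene Tifab, the carbonic anhydrase gene Car15 and the uncharacterised gene 2210016F16Rik were at least 2.28-fold, 1.71-fold and 1.41-fold lower. Of their regions' other tested probes, 2 opposite Tifab stood at 0.58 and -0.02 and 1 opposite 2210016F16Rik at -0.87, and none was called. The probe opposite Ythdf2, a reader of methylated adenosine in mRNA that promotes its decay, was at least 1.46-fold lower (adjusted p = 0.0181), while Ythdf2 stood at -0.06 (adjusted p = 0.713). Of 7 tested probes in 2 overlapping regions of the same strand none was called, with 5 at -0.25 to -0.06 and 2 at -0.51 and -0.38. The probe opposite the zinc finger gene Zfp932 fell by 1.23 ± 0.26 (adjusted p = 0.0193), with 1 of 3 shExosc8 arrays above background. A brighter probe of 1010001B22Rik, a transcript on the strand of that region, was not called, at 0.16 (adjusted p = 0.233). On the opposite strand within that region, probes of Zfp932 transcripts fell by 1.20 ± 0.24 (adjusted p = 0.0166) and 0.50 ± 0.12 (adjusted p = 0.0251). The nearest coding probe of Zfp932 was not called, at -0.23 (adjusted p = 0.179). Only 1 tested region had a nearest coding gene from the lists of exosome, termination and cell type genes. It lay opposite the ribosomal RNA processing gene Rrp1b (-0.73, adjusted p = 0.124), and 1 of its 3 tested probes fell, by 0.52 ± 0.15 (adjusted p = 0.0474), a call lost without any array but shExosc8 replicate 3.

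The calls of several of the largest changes did not hold with 1 array fewer. Of the 12 largest rises 4 lost their call when some array was left out, those opposite Hlx, Neat1, Tfap4 and Sirt6. Of the 12 largest falls 9 did, those opposite Phb, Car15, 2210016F16Rik, Zfp652, Ythdf2, Plekha8 and Zfp932 and 1 each of the pairs opposite Zfp169 and Myoz1. The arrays whose removal lost calls among these falls were shControl replicates 1, 2 and 3 (8, 6 and 8 calls), shExosc8 replicates 1 and 2 (8 and 7) and shExosc8 replicate 3 (1).

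**Figure D3:**
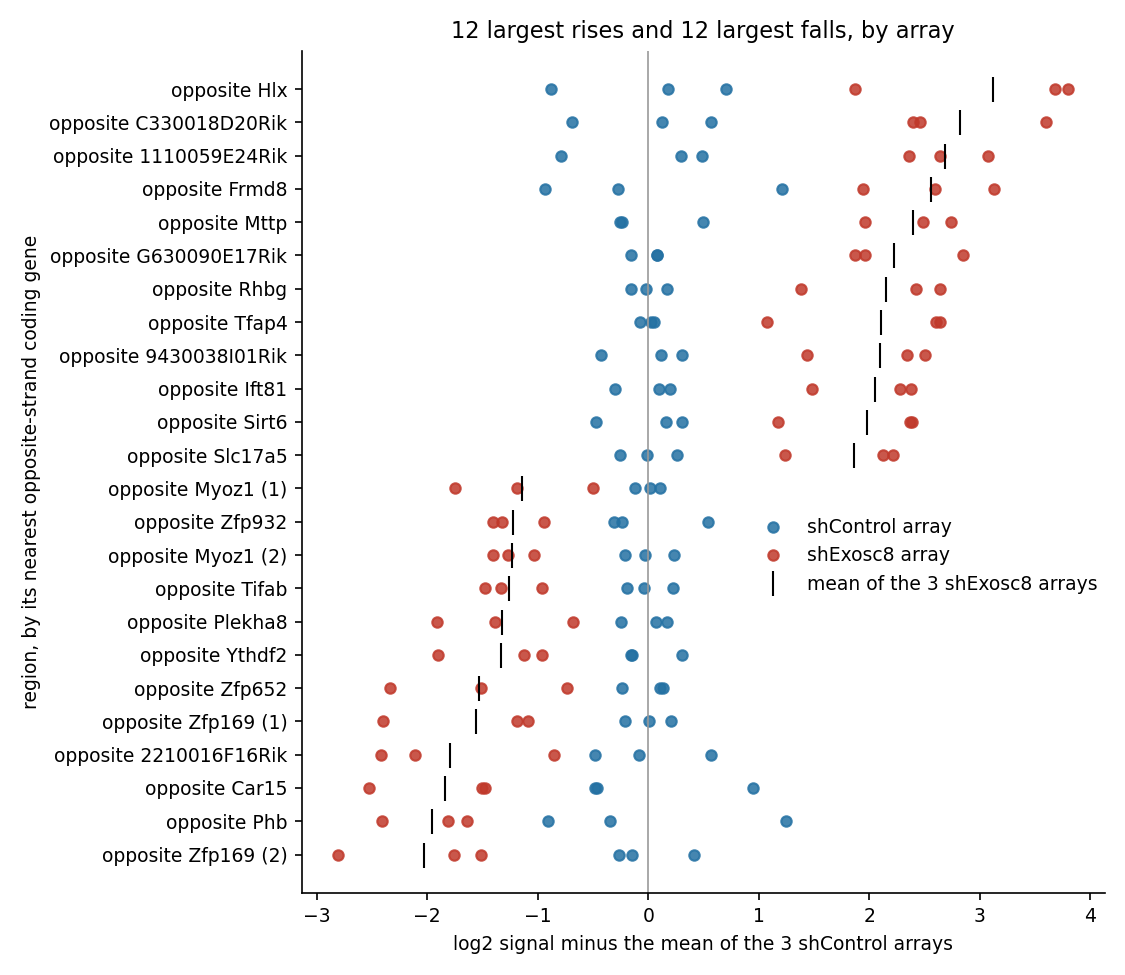
Each line is 1 probe of an opposite-strand region, named by its nearest coding gene, with the 3 shControl arrays (blue) and 3 shExosc8 arrays (red) as log2 signal minus the control mean, and a bar at the shExosc8 mean, for the 12 largest rises and 12 largest falls. The 24 were chosen among probes whose groups do not overlap, so the red and blue points are apart by that rule. The lowest red point is shExosc8 replicate 3 in 10 of the 12 rises.

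Across all tested probes, the changes on the region strand had a weak correlation with those of the opposite coding gene. For 490 probes the nearest opposite coding probe was tested too, and the log2 fold changes of the pair correlated at r = 0.18 and rho = 0.21, a description across probes that share genes (304 distinct genes for the 630 probes) and arrays. Of the 90 probes that rose, 14 lay opposite a gene that rose, 7 opposite one that fell, 46 opposite one that did not pass and 23 opposite one that was not tested. Of the 52 that fell, 13 lay opposite a gene that fell and 0 opposite one that rose. The 488 probes that did not pass lay opposite 72 fallen and 50 risen genes. The 13 falls beside a fallen gene include the 7 of Zfp652, the 3 of Plekha8 and the 2 of Ttc37. The regions themselves were also probed on the other strand in 373 cases, and both strands of 142 regions were tested. Where the described strand rose (27 regions), the other strand held a rise in 4, a fall in 3 and no call in 20. Where it fell (19 regions), the other strand held a fall in 7, a rise in 2 and no call in 10. Among the 96 regions with no call on the described strand, the other strand held a rise in 18, a fall in 7, both in 1 and no call in 70.

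The tested probes were also counted by their distance from the coding probe, and the difference between distances was not tested. Within 1 kb 6 of 53 rose (11.3%) and 7 fell (13.2%), and from 1 to 5 kb 12 of 139 rose (8.63%) and 20 fell (14.4%). From 5 to 10 kb 23 of 125 rose (18.4%) and 9 fell (7.2%), and from 10 to 15 kb 26 of 179 rose (14.53%) and 8 fell (4.47%). From 15 to 20 kb 23 of 134 rose (17.2%) and 8 fell (5.97%). Beside the 14.7% and 13.1% of all probes, the share of falls within 5 kb and the share of rises from 10 to 15 kb were near the background. The 20 falls from 1 to 5 kb include the 7 opposite Zfp652 and those opposite Zfp169. The 7 falls within 1 kb include the 3 opposite Plekha8. Probes of 1 region are not independent, so these shares rest in part on a few regions. On the 5' side of the coding probe 32 of 188 rose (17.0%) and 10 fell (5.32%), and on the 3' side 58 of 437 rose (13.3%) and 41 fell (9.38%). Coding probes mostly lie near the 3' end of their gene, so a probe on the 5' side can lie within the gene's own span. No gene models of this build were used here. At the edge of the rule, the tested probes just inside 20 kb lay 19943 bases from Enc1 (-0.21, not called) and 19927 bases from Manbal (0.53, adjusted p = 0.0344), and those just outside lay 20001 bases from Adam4 (-0.20, not called) and 20003 bases from Enc1 (-0.19, not called).

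Probes that rose held more pyrimidines in the median than probes that fell. The median pyrimidine share was 60% in the 90 probes that rose (quartiles 51.7% and 65.0%), 53.3% in the 488 that did not pass and 48.3% in the 52 that fell (quartiles 44.6% and 55.0%). Cytosine made up a median of 28.3%, 25% and 20% of the bases and adenine 21.7%, 25% and 28.3%, while the median GC share was 45%, 45% and 44.2%. A run of 6 or more pyrimidines was present in 71 of 90 probes that rose (78.9%), 311 of 488 that did not pass (63.7%) and 23 of 52 that fell (44.2%), beside 52.8% of all 2449 probes. The order was the same over all probes tested (58.8%, 53.5% and 46.7%). It was also the same in the lincRNA classes with a coding probe on the same strand (71.7%, 60.2% and 47.2%) and far from coding genes (70.1%, 65.0% and 46.9%). With the brightest probe standing for each region, the medians were 60% for 58 regions that rose, 55.0% for 267 that did not pass and 51.7% for 23 that fell, and without the regions opposite Neat1 the 83 probes that rose kept a median of 60%. These are descriptions, chosen after the values had been seen.

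Read the other way, 48 of 173 tested probes with at least 60% pyrimidines rose (27.7%) and 5 fell (2.89%), against 28 rises and 20 falls among 244 with 50% to under 60% and 14 rises (6.57%) and 27 falls (12.7%) among 213 under 50%. Over all probes tested the shares that rose in the same 3 ranges were 20.7%, 15.3% and 11.8%, and the shares that fell were 7.70%, 12.7% and 15.6%. The order was thus the same in the array as a whole, where the medians were 53.3% for probes that rose, 50% for those that did not pass and 48.3% for those that fell. The median log2 fold change of the region probes with at least 60% pyrimidines was 0.28 and that of probes under 50% was -0.11, a difference of 0.39 that lay between 0.24 and 0.59 under the alternatives tried.

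**Figure D4:**
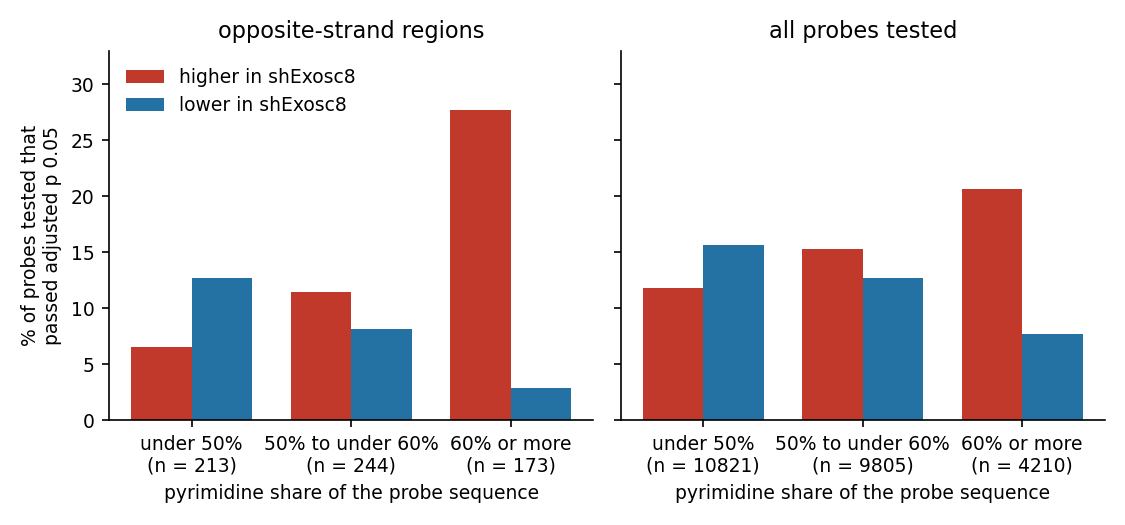
Percentage of tested probes higher (red) or lower (blue) in shExosc8 at an adjusted p under 0.05 by limma, by the pyrimidine share of the probe sequence, for the opposite-strand region probes (left) and for all probes tested (right). The share higher goes from 6.57% to 27.7% in the regions and from 11.8% to 20.7% over all probes.

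Motifs at RNA ends and splice sites were rare in both directions. The polyadenylation hexamer AATAAA, searched on the probe's own strand, was present in 108 of 2449 region probes (4.41%), in 3 of 90 that rose and in 1 of 52 that fell, beside 3.92% of all lincRNA probes and 13.2% of coding probes. The letters GGTAAG, which match the start of many introns, were present in 28 of 2449 (1.14%), 1 of 90 and 2 of 52, beside 1.03% of all lincRNA probes and 0.504% of coding probes. The 2 motifs do not overlap in their letters, and a match within 60 bases is not a site.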

How the data were processed

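RNA of 3 shExosc8 and 3 shControl samples was measured on single-colour mouse arrays. Per the file headers, the deposited spot intensity values were made by Agilent Feature Extraction 10.7.3.1 with a spatial background subtraction and detrending. Probe coordinates and sequences are on mm9, per the file headers. A table for the whole series holds the authors' own comparison as deposited log2 fold changes and p-values. The submitters' processing notes name limma, the normalization behind that table is not given here, and its 6 columns of sample values were not used.

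Control spots (3671) and spots with outlier flags were left out, replicate spots were averaged as log2 values, and 21 of 55681 probes lacking a usable spot were dropped. Arrays were scaled to a common 75th percentile, taken over the 21615 probes well above background everywhere. The 24836 probes well above background on every array of either group were tested with limma 3.58.1 in R 4.3.3 (lmFit and eBayes, two-sided), with Benjamini-Hochberg adjustment over all of them and a threshold of 0.05. The step was tested on simulated data. A probe below background on all arrays of 1 group is given as a bound, the bright group's mean over a floor for the dim group, where each array's floor is its lowest signal called well above background or the probe's signal if that is higher. Groups and replicate numbers came from the labels. Gene names came through accessions from a RefSeq table (GRCm38.p6), used for names alone.

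Regions were classed by the distance of each probe from the nearest coding probe, with 20 kb as the limit and strand read from the order of the coordinates. Named regions were the 12 largest rises and 12 largest falls among probes past the threshold with groups that do not overlap, 1 probe a region, regions with 3 or more tested probes all called one way, those at the edge of the window and those beside listed genes. The regions, lists and rules were chosen with earlier results of these data known. Names and measures outside the rule were chosen after their values were seen. The alternatives covered scaling, background correction, the filter, flags, 1 probe per name, the empirical Bayes step, each array left out, blocks for replicate number and slide column, and the window. The number of arrays limits the precision.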

Additional observations from a re-analysis of the deposited data

How the results depend on the processing

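Beside 90 rises, 52 falls and a median log2 fold change of -0.0012, the 75th percentile of all probes gave 98 falls and a median of -0.15, normexp with the 75th percentile 23 falls and 0.16, and no normalization 47 rises, 218 falls and -0.50. Without a filter on dim probes 23 of 2448 rose (0.940%) and 10 fell (0.408%), beside 2.56% and 0.507% of all probes. The stricter filter gave a median of 0.10, and 1 probe per name gave 21 falls and a median of 0.13. A window of 10 kb gave 45 rises (11.8%) and 46 falls (12.1%) of 380 and a median of -0.12, so the share of falls was near that of all probes (13.1%). A window of 50 kb gave 126 rises (14.6%) and 88 falls (10.2%) of 865. With each array left out in turn there were 40 to 152 rises and 22 to 81 falls, with medians from -0.091 to 0.11. Every array moved a count by over 1.5 times. Rises and falls numbered 41 and 22 without shExosc8 replicate 1, 52 and 33 without replicate 2, 152 and 81 without replicate 3, 46 and 24 without shControl replicate 1, 87 and 26 without replicate 2, and 40 and 28 without replicate 3. Without shControl replicate 2 and shExosc8 replicate 3 together, a setting chosen after seeing the data, 183 rose with a median of 0.20. The slide column block left 2 rises, 1 fall and Exosc8 at -1.03 (adjusted p = 0.142). In that fit, columns 1 and 4 each held 1 array, which does not bear on the difference. The cause of these moves was not tested beyond what each setting removes.

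The replicate block gave 97 rises and 58 falls, and no call of a named probe was lost under it. Deviations of same-numbered arrays correlated at 0.05, 0.21 and 0.28, and those of differently numbered arrays at -0.25 to 0.13. Deviations from a group mean are tied to each other, so these values do not settle whether the numbers pair the samples. No named probe changed sign under any alternative. Of 42, 14 lost their call with normexp and the 75th percentile, 9 with normexp and quantile normalization, 28 without the filter and 39 under the slide column block. Of the 90 rises and 52 falls, 36 and 16 kept their call for every array left out, and 68 and 25 without shControl replicate 2. By the p-values of the authors' deposited table, 35 of the 630 probes passed 0.05 after adjustment, 29 higher and 6 lower, all in the direction given here. The share over all probes of that table was not counted. Both comparisons rest on the same 6 arrays, so the shared direction is no independent check.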

Other observations

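In a few regions both strands changed, in opposite directions. Opposite Epop, a gene of the Polycomb system, 1 of 4 tested probes of the plus strand fell, while the 2 tested probes of the region's other strand rose by 1.15 and 1.67. Opposite Ankrd50 1 of 2 tested probes rose by 1.23 and the tested probe of the other strand stood at -0.85 and fell. Opposite Intu, whose own probe fell by 0.69 (adjusted p = 0.0422), 1 of 3 tested probes rose by 1.10 and 2 of 4 probes of the other strand fell. Opposite the ubiquitin ligase gene Ube3a 1 of 2 tested probes fell by 0.72, and 1 of 8 probes of the other strand rose.

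The counts by strand of the genome were as follows. Of 345 tested probes on the plus strand 58 rose (16.8%) and 25 fell (7.25%), and of 285 on the minus strand 32 rose (11.2%) and 27 fell (9.47%). By detection alone, 2 probes were above background on all shExosc8 arrays and no control, and 36 on all controls and no shExosc8 array. The share over all probes was not counted for this pattern. By the looser measure of the filter, the whole array leaned the same way. Of all 24836 probes tested, 2410 passed through the shControl arrays alone and 811 through the shExosc8 arrays alone.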
